A study of Homo sapiens with 4 samples.

Results

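The cells described here are the 288 barcodes, of 3194 in all, that carried under 30000 unique molecular identifiers (UMIs, one per captured RNA molecule) and of whose UMIs 2% to under 20% came from the mitochondrially encoded (MT-) genes. They are called RNA-poor cells below. All are HCC1143 cells, an established human line from a basal-like, triple-negative breast carcinoma, profiled one cell at a time by droplet capture of poly(A) RNA on the 10x Chromium platform. There were 4 groups with 1 library each, made after the cells had been left to attach in 6-well plates: DMSO alone, the solvent, or paclitaxel at 1 nM, either for 24 h or for 72 h. The libraries are called 24 h DMSO, 24 h paclitaxel, 72 h DMSO and 72 h paclitaxel, and 4 values in a row stand in that order. Each RNA-poor pool was set beside the cells of 40000 to 80000 UMIs in the same MT- range of its own library, called comparison cells, of which there were 1619. The UMI total and the MT- share chose the cells, so both are given as descriptions. Because each group is 1 library, and the cells of both pools were chosen on the readout itself, no test across samples was made. Intervals are exact 95% intervals and cover counting error only.

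Before the biology, the tables themselves were checked. The 4 tables held 34997421 to 72057374 UMIs. The summed UMIs of the RNA-poor cells were 1770032 in 24 h DMSO, 1937874 in 24 h paclitaxel, 1205046 in 72 h DMSO and 1588509 in 72 h paclitaxel, so a count of 0 allows up to 1.69, 1.55, 2.49 and 1.89 CPM, the counts per 1000000 UMIs of a pool. Of the barcode sequences, 4 occurred in both 24 h libraries and 3 in both DMSO libraries, and 1 of these 7 belonged to an RNA-poor cell. A doublet caller marked 1 to 11 barcodes per library and 0 of the RNA-poor cells.

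The amount of messenger RNA in a cell scales with its size, is lowest in the small cells that have just divided, and rises through the cycle. Cells that are dying lose cytoplasmic RNA, and cells whose membrane has opened often keep mitochondrial RNA in excess, which is why single-cell studies filter on both measures. Paclitaxel binds beta-tubulin in the lumen of the microtubule and stabilises the polymer. Cells that divide in its presence can distribute their chromosomes unequally between daughters, and cells that leave mitosis without dividing keep a doubled genome.

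RNA-poor cells were 77 of 1102 barcodes in 24 h DMSO, a share of 6.99% (interval 5.55 to 8.66%). In 24 h paclitaxel they were 85 of 778, or 10.9% (8.82 to 13.3%). In 72 h DMSO they were 52 of 788, or 6.60% (4.97 to 8.56%). Of the 526 barcodes in 72 h paclitaxel, 74 were RNA-poor, or 14.1% (11.2 to 17.3%). The share was thus higher in the paclitaxel library at both times, and at each time the 2 intervals did not overlap, although spread between cultures could not be measured. Barcodes that fell under 30000 UMIs but had under 2% MT- UMIs were left out by the rule; they numbered 1, 1, 4 and 23 in library order. Those at 20% or more numbered 0, 2, 3 and 4 in the same order. No source used here states how cells were separated from empty droplets, and that step can set the lower end of these classes.

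**Figure D1:**
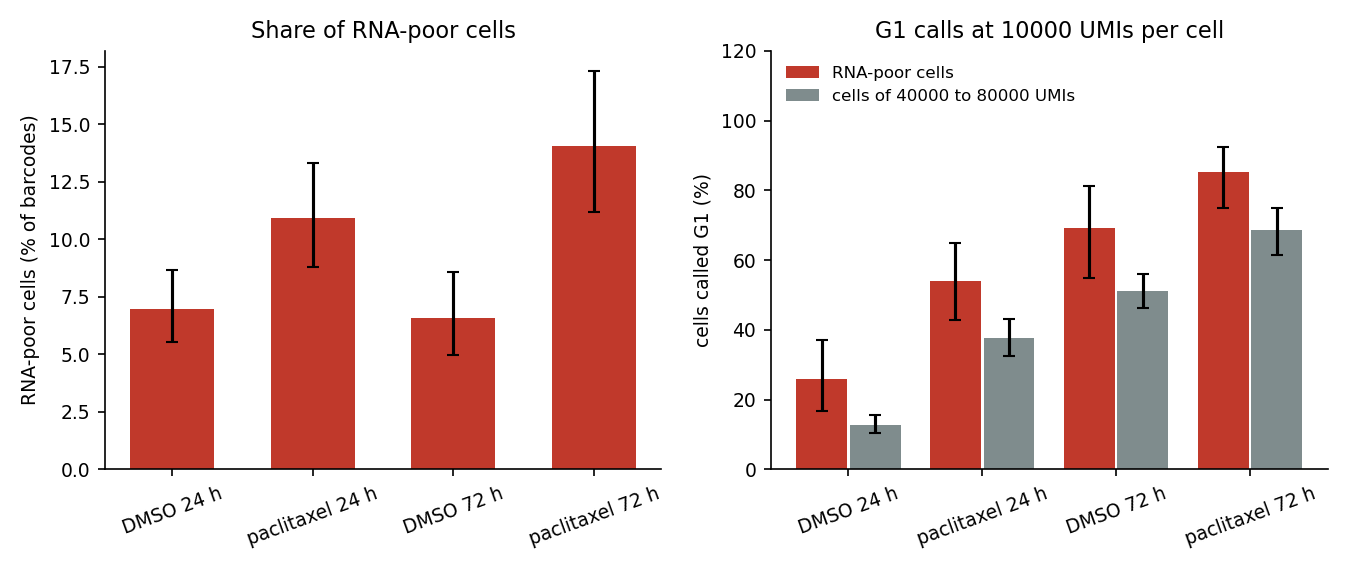
Share of barcodes that were RNA-poor (left) and share of cells called G1 among RNA-poor and comparison cells (right), in percent, for each library; bars are exact 95% intervals. The RNA-poor share is 14.1% in 72 h paclitaxel and 6.60% in 72 h DMSO, and the G1 share is higher in RNA-poor than in comparison cells in all 4 libraries.

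Within the class the median UMI total was 23447 in 24 h DMSO, 22220 in 24 h paclitaxel, 24912 in 72 h DMSO and 21684 in 72 h paclitaxel, against 54298 to 57599 in the comparison cells. The smallest cells had 12350 to 15968 UMIs, and 20, 26, 15 and 31 cells lay under 20000 UMIs in the same order of libraries. The distributions ran through the limit without a gap: 8, 17, 12 and 9 cells lay just inside it, at 28000 to 30000 UMIs, and 10, 23, 12 and 7 just outside, at 30000 to 32000 UMIs. At the lower MT- edge, 1, 1, 1 and 3 cells held 2% to under 3%, and 0, 1, 4 and 12 barcodes under 30000 UMIs held 1% to under 2%. Median MT- shares of RNA-poor cells, at 7.29 to 8.32%, stood near those of comparison cells, at 7.13 to 8.02%. The choice of cells held both pools to the same MT- range, which by itself brings these medians closer. Over 10% MT- were 22 cells in 24 h DMSO, 15 in 24 h paclitaxel, 12 in 72 h DMSO and 19 in 72 h paclitaxel.

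The number of genes in the RNA pool was compared after every cell was thinned at random to 10000 UMIs. A median of 3128 genes was then detected per RNA-poor cell in 24 h DMSO, against 3094 in comparison cells. The medians were 2853 against 2895 in 24 h paclitaxel and 2827 against 2718 in 72 h DMSO. In 72 h paclitaxel the RNA-poor cells held 2765 genes against 3081, a ratio of 0.90, while the other 3 libraries lay at ratios of 0.99 to 1.04. Before thinning, RNA-poor cells showed 4122 to 5109 genes and comparison cells 6865 to 7329.

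A larger part of the RNA-poor cells was in G1, the phase between division and DNA replication, but the class was not made of G1 cells alone. Phases were called from published S and G2/M gene lists in cells thinned to 10000 UMIs. G1 was called in 20 of 77 RNA-poor cells of 24 h DMSO, which is 26.0% (16.6 to 37.2%), against 12.8% of comparison cells. In 24 h paclitaxel it was called in 54.1% (43.0 to 65.0%) against 37.7%. In 72 h DMSO the values were 69.2% (54.9 to 81.3%) against 51.2%. The values in 72 h paclitaxel were 85.1% (75 to 92.3%) against 68.6%. The G1 share of both pools was therefore higher at 72 h than at 24 h and higher in paclitaxel than in DMSO, and the RNA-poor cells lay above their comparison cells each time. In 24 h DMSO, 42.9% of the RNA-poor cells were called S and 31.2% G2/M. Those shares were 4.05% and 10.8% in 72 h paclitaxel.

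MKI67, which encodes the Ki-67 protein of proliferating cells, and TOP2A, the topoisomerase that resolves DNA entanglements before mitosis, gave the same order. The phases were called from the same thinned counts and also by genes of cycling cells, so this readout is not independent of the phase calls. In thinned cells a UMI of neither gene was found in 26.0% of RNA-poor cells of 24 h DMSO, 61.2% in 24 h paclitaxel, 69.2% in 72 h DMSO and 81.1% in 72 h paclitaxel. Comparison cells stood at 18.6%, 47.6%, 53.5% and 67.0%. Without thinning the shares were 13%, 45.9%, 61.5% and 66.2% against 3.77%, 17.8%, 25.1% and 35.6%, so the deeper cells gave the lower values. The level of MKI67 was 146 CPM in RNA-poor against 162 CPM in comparison cells of 24 h DMSO. It was 55.2 against 74.8 CPM in 24 h paclitaxel, 34.0 against 70.1 CPM in 72 h DMSO and 15.7 against 36.1 CPM in 72 h paclitaxel.

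For single genes, summed UMIs of the RNA-poor cells of a library were compared with summed UMIs of its comparison cells as a log2 ratio of CPM. A gene was counted as higher or lower when the ratio was at least 1.5-fold, the mean of the pools at least 50 CPM and the interval of the ratio free of 1. In 24 h DMSO, 61 genes were higher and 10 lower, which is 2.21% and 0.362% of the 2760 genes with that mean. In 24 h paclitaxel, 36 were higher and 15 lower, or 1.45% and 0.604% of 2483. In 72 h DMSO, 78 were higher and 32 lower, or 3.43% and 1.41% of 2274. The numbers in 72 h paclitaxel were 246 and 144, or 8.63% and 5.05% of 2851. Of the 4 libraries, 72 h paclitaxel thus held the most genes past these limits in each direction. Genes not counted may still differ, since the pools are small. Of the 1985 genes that could be counted in all 4 libraries, 1 was higher in every library, B4GALT1, and 1 was lower in every library, HIST1H4C, each 0.0504% of them. In 3 libraries 11 genes were higher and 0 lower, and in 1 library alone 326 were higher and 169 lower. The split depended on the scaling: higher genes made up 85.9%, 70.6%, 70.9% and 63.1% of those counted in library order. With trimmed mean of M values (TMM) factors the shares were 65.0%, 53.7%, 28.7% and 64.6%, and with totals free of ribosomal protein and MT- genes they were 83.2%, 54.7%, 56.3% and 45.1%.

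The highest ratios belonged to a small set of genes that stood far up in 24 h DMSO and hardly at all in 72 h paclitaxel. PHKG1, a catalytic subunit of phosphorylase kinase, which turns on glycogen breakdown, had 190 CPM in RNA-poor against 26.0 CPM in comparison cells of 24 h DMSO (log2 ratio 2.87, interval 2.69 to 3.05). It stood at 109 against 33.5 CPM in 24 h paclitaxel and 97.9 against 34.9 CPM in 72 h DMSO, and at 41.5 against 36.6 CPM in 72 h paclitaxel (0.18, -0.21 to 0.56). EIF5A, the translation elongation factor that carries hypusine, had 1701 against 338 CPM in 24 h DMSO (2.33, 2.27 to 2.39). Its levels were 532 against 240 CPM in 24 h paclitaxel, 259 against 145 CPM in 72 h DMSO and 224 against 192 CPM in 72 h paclitaxel. For both genes the ratio was highest in 24 h DMSO and lowest in 72 h paclitaxel.

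CTNNB1, which encodes beta-catenin of adherens junctions and Wnt signalling, had 798 against 169 CPM in 24 h DMSO (log2 ratio 2.24, interval 2.16 to 2.33), and ratios of 0.77, 1.03 and 0.05 in 24 h paclitaxel, 72 h DMSO and 72 h paclitaxel. C1orf56 had 268 against 37.7 CPM in 24 h DMSO (2.83, 2.68 to 2.98), then 1.26, 1.46 and 0.31. CDC42SE1, a small effector of the GTPase CDC42, had 236 against 66.9 CPM (1.82, 1.67 to 1.97), then 0.67, 1.18 and 0.05. The last pair are neighbours on chromosome 1: C1orf56 spans 151047740 to 151051986 and CDC42SE1 spans 151050971 to 151070325 (GRCh38), so the gene models overlap and counts of one could hold reads of the other. HNRNPH1, a splicing regulator, had 694 against 222 CPM in 24 h DMSO (1.65), and ADAM17, the protease that sheds TNF and EGFR ligands, 91.0 against 33.0 CPM (1.46). Their ratios in the other 3 libraries lay between 0.33 and 0.68.

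In 24 h DMSO, the library with the highest ratios, EIF5A, CTNNB1, C1orf56 and PHKG1 were higher in molecules per cell as well, although RNA-poor cells held fewer UMIs. EIF5A had 39.1 UMIs per RNA-poor cell against 19.7 per comparison cell, CTNNB1 had 18.4 against 9.83, C1orf56 had 6.16 against 2.20, and PHKG1 had 4.36 against 1.52. Above the limit the level of EIF5A was lower in larger cells: in 24 h DMSO it stood at 1543 CPM in cells under 20000 UMIs, 1740 CPM at 20000 to 30000, 744 CPM at 30000 to 40000 and 375 CPM at 40000 to 60000. Across single RNA-poor cells its median was 1740 CPM in 24 h DMSO against 272 CPM in comparison cells. The medians were 245 against 167 CPM in 24 h paclitaxel, 128 against 115 CPM in 72 h DMSO and 132 against 156 CPM in 72 h paclitaxel, while the highest cell of each library had 1537 to 4278 CPM. Above the 95th percentile of the comparison cells of their library lay 57 of 77, 22 of 85, 12 of 52 and 9 of 74 RNA-poor cells.

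It was then counted, as a description, how often 1 cell was high in several of these genes. The 8 genes with the highest ratios were taken, a set chosen after their values were seen, so that an excess over comparison cells follows from the choice. A cell was counted when at least 4 exceeded the 95th percentile of the comparison cells of its library. This held for 56 of 77 RNA-poor cells in 24 h DMSO, 72.7% (61.4 to 82.3%), against 4.68% of comparison cells. It held for 14 of 85 in 24 h paclitaxel (16.5%), 13 of 52 in 72 h DMSO (25%) and 4 of 74 in 72 h paclitaxel (5.41%), against 4.82%, 4.88% and 3.09%. Of the 56 cells, 14 were called G1. Their median MT- share was 8.05% against 8.44% in the remaining RNA-poor cells of that library, and their median UMI total was 23518 against 23106. For the 13 cells of 72 h DMSO these values were 5.37% against 7.90% and 20400 against 26483.

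**Figure D2:**
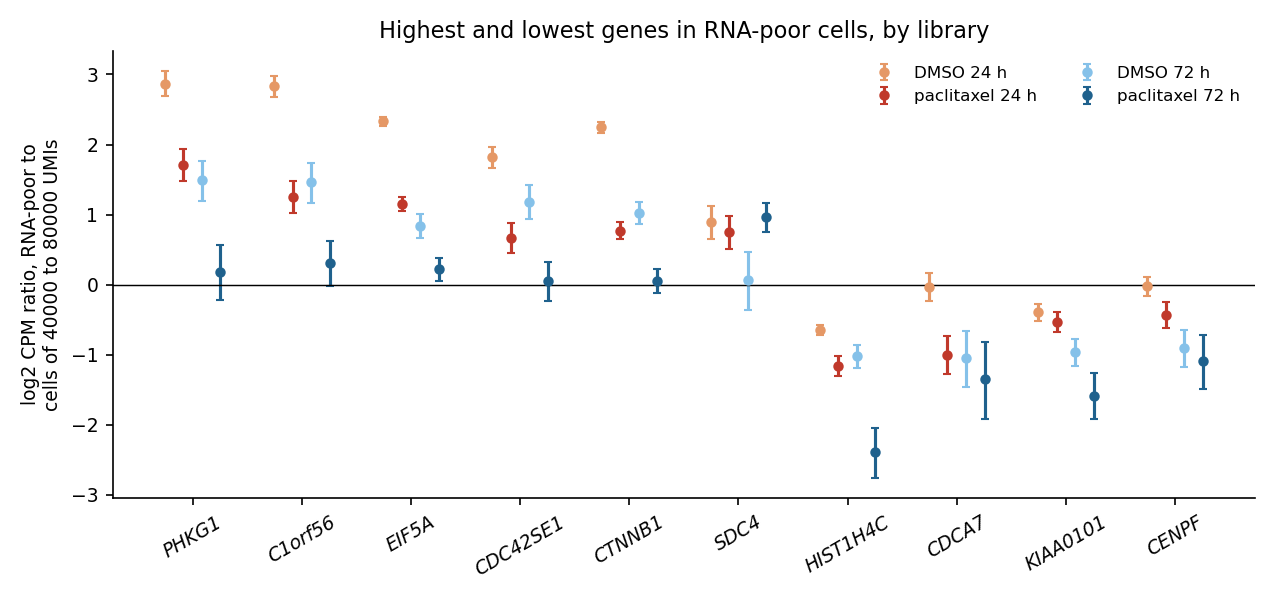
Log2 ratio of CPM, RNA-poor over comparison cells, for 10 named genes in the 4 libraries, with exact 95% intervals. PHKG1, C1orf56 and EIF5A reach 2.33 to 2.87 in 24 h DMSO and 0.18 to 0.31 in 72 h paclitaxel, while HIST1H4C lies below 0 in all 4 libraries.

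B4GALT1, a galactosyltransferase of the Golgi, was the gene higher in every library; with TMM factors, or with totals free of ribosomal protein and MT- genes, 0 genes passed in all 4. It had 194 against 56.3 CPM in 24 h DMSO, 99.6 against 60.4 CPM in 24 h paclitaxel, 92.9 against 57.8 CPM in 72 h DMSO and 111 against 73.7 CPM in 72 h paclitaxel. SDC4, the heparan sulfate proteoglycan syndecan 4, had log2 ratios of 0.89, 0.75, 0.06 and 0.96 in the same order. XBP1, a transcription factor of the unfolded protein response, and ARF4, a GTPase of Golgi traffic, were highest in 72 h paclitaxel, at 1.24 and 1.16. In the other 3 libraries XBP1 lay at 0.24 to 0.64 and ARF4 at 0.13 to 0.79. Both thus differed from the EIF5A set in the library where the ratio was highest.

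The gene lower in every library was HIST1H4C, a histone H4 gene expressed with DNA synthesis. It had 809 CPM in RNA-poor against 1268 CPM in comparison cells of 24 h DMSO (log2 ratio -0.65, interval -0.73 to -0.57). It stood at 216 against 485 CPM in 24 h paclitaxel (-1.16), 277 against 563 CPM in 72 h DMSO (-1.02) and 42.8 against 224 CPM in 72 h paclitaxel (-2.39, -2.76 to -2.04). Lower too, except in 24 h DMSO, where it lay at -0.04, was CDCA7, an E2F and MYC target, with -1.0, -1.05 and -1.35. KIAA0101, the PCNA-associated factor PCLAF, had -0.40, -0.53, -0.97 and -1.59. CENPF, a kinetochore protein of late G2 and mitosis, had -0.03, -0.43, -0.91 and -1.09. DNMT1, the maintenance DNA methyltransferase, had smaller ratios of -0.25, -0.40, -0.56 and -0.53, and HES4, a transcriptional repressor of the Notch pathway, -0.33, -0.58, -0.56 and -0.60. Within cells called G1 the ratio of CENPF changed sign, with a median over libraries of 0.56, and no gene passed in all 4 libraries in either direction.

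Gene lists were counted over those of their genes that averaged 10 CPM or more across both pools. At that minimum 4.90% of all genes were higher and 1.03% lower in 24 h DMSO, 3.10% and 2.52% in 24 h paclitaxel, 6.72% and 2.58% in 72 h DMSO, and 8.51% and 9.78% in 72 h paclitaxel. The median log2 ratio of all genes was 0.04, 0.02, 0.09 and -0.04. Of the S phase list, 1 of 41 members was lower in 24 h DMSO, 10 of 38 in 24 h paclitaxel, 9 of 34 in 72 h DMSO and 12 of 35 in 72 h paclitaxel. Of the G2/M list, 1 of 52, 11 of 49, 27 of 47 and 13 of 44 were lower in the same order, with list medians of -0.05, -0.34, -0.71 and -0.24. Higher in 72 h paclitaxel were 6 S phase genes and 2 G2/M genes. Among cells called G1 the median over libraries was 0.06 for the S phase list and 0.14 for the G2/M list, but the phase itself is called from these lists.

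Not all histone genes followed HIST1H4C. The summed level of the replication-dependent histone list was lower in RNA-poor cells, at 1029 against 1508 CPM in 24 h DMSO and 378 against 482 CPM in 72 h paclitaxel. HIST2H2BE, a histone H2B gene whose transcripts can be polyadenylated outside S phase, went the other way, with log2 ratios of 0.88, 0.89, 0.80 and 0.95. HIST1H2BD, another histone H2B gene, had 1.09, 1.36, 0.42 and 0.40. The list's median over members was therefore above 0 in every library, at 0.13, 0.87, 0.36 and 0.40, and differed in sign from its sum.

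Of the integrated stress and unfolded protein response list, 12 of 26 measured members were higher in RNA-poor cells of 72 h paclitaxel, with 0 lower. Higher members were 2 of 23 in 24 h DMSO, 5 of 24 in 24 h paclitaxel and 6 of 22 in 72 h DMSO. The 2 of 24 h DMSO are too few to set apart from the share of all genes. Whether the libraries differ in this was not tested. Of all genes 8.51%, 4.90%, 3.10% and 6.72% were higher in these libraries. The list's summed level was 3924 CPM in RNA-poor and 2725 CPM in comparison cells of 72 h paclitaxel, and the median over members was 0.58. HERPUD1, an endoplasmic reticulum protein of the degradation pathway, had 182 against 57.0 CPM in that library (log2 ratio 1.67, interval 1.47 to 1.88) and ratios of -0.23 to 0.15 in the other 3. DDIT3, the transcription factor CHOP, had 114 against 58.7 CPM there (0.96). Its ratios of 1.03 and 1.70 in 24 h paclitaxel and 72 h DMSO rested on 1 cell for 41.8% and 35.8% of the UMIs. HSPA5, the endoplasmic reticulum chaperone BiP, had 287 against 131 CPM in 72 h paclitaxel, with 40.1% of the UMIs in 1 cell.

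Further lists are read against the same shares of all genes, 4.90%, 3.10%, 6.72% and 8.51% higher in library order. Heat shock proteins were higher for 1, 4, 3 and 7 of 17 members in library order. Immediate early genes, which respond within minutes to signals and to handling of cells, were higher for 0 of 15, 1 of 17, 3 of 17 and 8 of 17. Antioxidant and detoxification genes were higher for 1 of 17, 0 of 18, 2 of 17 and 9 of 22, among them in 72 h paclitaxel HMOX1, which breaks down heme, at 52.9 against 17.8 CPM, and TXNRD1, a thioredoxin reductase, at 91.3 against 36.7 CPM. Apoptosis-promoting genes were higher for 0 of 14, 0 of 15, 3 of 14 and 2 of 17. BBC3, which encodes the pro-apoptotic protein PUMA, had log2 ratios of 0.41, 0.57, 0.95 and 0.57, and PMAIP1, which encodes NOXA, had -0.64, -0.10, 0.60 and 0.71. Both are induced by p53 in other cells, and CDKN1A, the p53 target that inhibits cyclin-dependent kinases, lay at -0.27, 0.12, 0.52 and 0.49. The median MT- share of the class was 7.29% in 72 h paclitaxel, against 7.54% in comparison cells. Both pools were chosen within the same MT- range, so the closeness of these medians follows in part from the choice. Whether RNA-poor cells were dying was not tested.

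Inflammatory signal was uneven among the cells. The summed level of the NF-kB and inflammatory list had log2 ratios of -0.17, 1.5, 0.22 and 1.09 in library order. A single cell held 37.9% of the list's UMIs in 24 h paclitaxel and 33.1% in 72 h paclitaxel. Without the 2 cells with the most such UMIs in each library (a choice made after seeing the data) both ratios were 0.25. CXCL8, the neutrophil attractant interleukin 8, had 487 against 56.5 CPM in 24 h paclitaxel, with 53.9% of its UMIs in 1 cell, and 1181 against 190 CPM in 72 h paclitaxel, with 90.1% in 1 cell. S100A9, a calcium-binding protein of inflamed epithelium, had 106 against 14.6 CPM in 24 h DMSO with 92% in 1 cell. These values describe single cells and not the class.

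Of 35 interferon-stimulated genes measured in 72 h paclitaxel, 2 were higher and 7 lower, where 8.51% of all genes were higher and 9.78% lower. Their summed level was 6283 against 6523 CPM. Their median log2 ratio was -0.26, while in the other 3 libraries the median lay between -0.04 and 0.08. NOTCH3, a Notch receptor, had 107 against 231 CPM in 72 h paclitaxel (-1.11) and 225 against 185 CPM in 24 h DMSO. Ribosomal protein genes as a list had medians of -0.07, -0.05, -0.12 and -0.12.

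The RNA-poor pools held the epithelial keratins of the line. Summed over KRT5, KRT14, KRT17 and KRT6A, the basal markers, they had 1081, 1254, 796 and 2941 CPM in library order, against 1203, 1278, 704 and 2831 CPM. KRT8, KRT18, KRT19 and EPCAM, the luminal markers, summed to 1304, 1843, 1527 and 2952 CPM, against 1320, 1804, 1503 and 2624 CPM. Of 4 leukocyte markers, PTPRC, CD3E, LYZ and TYROBP, 0 to 2 were listed per table, with 0, 1, 0 and 4 UMIs. Of 4 fibroblast markers only COL1A1 was listed, at 11.4 to 18.3 CPM against 8.74 to 12.2 CPM. Endothelial markers gave 6, 7, 20 and 10 UMIs. The erythroid list, HBA1, HBA2, HBB and ALAS2, gave 3, 2, 0 and 40 UMIs, and the 40 in 72 h paclitaxel came from 4 cells, through HBA1 and HBA2. Longer lists of the same cell types gave 13, 21.7, 19.1 and 67.4 CPM for 15 leukocyte genes, against 17.3, 18.3, 20.9 and 38.7 CPM in comparison cells, and 52.3 to 68.4 CPM for 10 endothelial genes, against 60.5 to 75.3 CPM. The part of other cells in the results was not tested.

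In the paclitaxel libraries the RNA of many RNA-poor cells was spread unevenly over the chromosomes, a property that the choice of cells did not use. The measure was chosen after seeing the data. In cells thinned to 10000 UMIs, the UMIs of genes with 1 locus were summed per chromosome, for 1 to 22 and X, and divided by the median of comparison cells of the same library. The genes mapped this way held 89.3 to 90.4% of UMIs, and the chromosome with the fewest, 21, still had a median of 70.0 to 93.0. At least 1 chromosome at a ratio under 0.5 was found in 3 of 77 RNA-poor cells of 24 h DMSO, 3.90% (0.811 to 11%). In 24 h paclitaxel it was found in 22 of 85, 25.9% (17 to 36.5%), and in 72 h DMSO in 6 of 52, 11.5% (4.35 to 23.4%). In 72 h paclitaxel it was found in 66 of 74, 89.2% (79.8 to 95.2%).

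Comparison cells showed the same order at lower levels, with 1.36% in 24 h DMSO, 6.93% in 24 h paclitaxel, 1.63% in 72 h DMSO and 47.4% (40.2 to 54.7%) in 72 h paclitaxel. Shares therefore differed both between the drug and the solvent and between small and large cells of the same library. Along the UMI total of 72 h paclitaxel the share was 90.3% under 20000 UMIs, 88.4% at 20000 to 30000, 69.4% at 30000 to 40000, 54.8% at 40000 to 60000, 36.7% at 60000 to 80000, 18% at 80000 to 100000 and 15.4% above. In 24 h paclitaxel the same classes gave 38.5%, 20.3%, 21.1%, 8.17%, 4.84%, 0% and 0.606%. Every cell was thinned to the same number of UMIs, so counting depth was equal across the classes. The 0% stands for 0 of 93 cells, for which the interval reaches 3.89%.

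**Figure D3:**
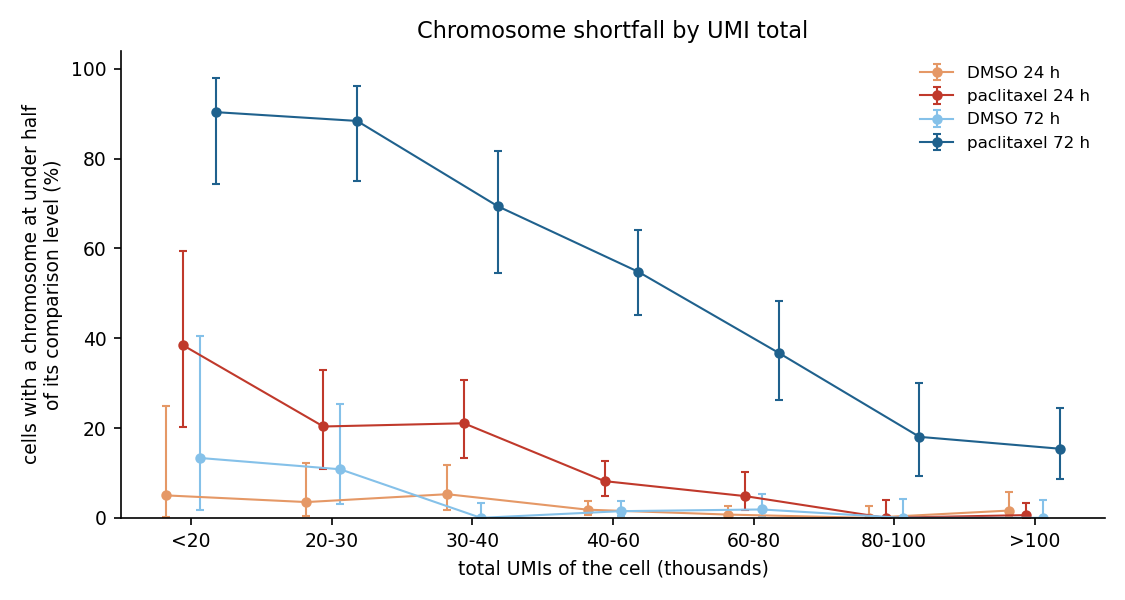
Share of cells, in percent, with at least 1 chromosome at under 0.5 of its level in comparison cells, by class of UMI total and library, in cells thinned to 10000 UMIs. In 72 h paclitaxel the share runs from 90.3% in the smallest cells to 15.4% in the largest.

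In 72 h paclitaxel an RNA-poor cell had a median of 3 such chromosomes and at most 11, and 47 of 74 cells had 3 or more. The lowest chromosome of a cell had a median ratio of 0.187 (lowest cell 0.0345), against 0.511 in comparison cells. In 44 of the 74 cells it lay under 0.25, against 5 of 85 in 24 h paclitaxel, 1 of 77 in 24 h DMSO and 1 of 52 in 72 h DMSO. The shortfall was spread over the genome: chromosome 12 was under 0.5 in 21 cells, chromosome 22 in 19, chromosome 11 in 18, and chromosomes 13 and X in 17 each, while chromosomes 1 and 20 were so in 4 each. Surplus was common as well, with a chromosome above a ratio of 1.5 in 71 of the 74 cells. Such RNA-poor cells were 30 of 85, 18 of 52 and 4 of 77 in 24 h paclitaxel, 72 h DMSO and 24 h DMSO. Comparison cells of 72 h paclitaxel often had a surplus too, in 125 of 194 (64.4%). Their shares were 19.9% in 24 h paclitaxel, 9.53% in 72 h DMSO and 5.13% in 24 h DMSO.

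The shortfall was then looked at by the number of genes detected and without the most abundant genes of a chromosome. On the 105 chromosomes under 0.25 in RNA-poor cells of 72 h paclitaxel, the number of detected genes had a median ratio of 0.190 and at most 0.417. The median was 0.969 on chromosomes not under 0.5. Fewer UMIs by themselves lower the number of genes detected, so the low values partly follow from the choice of chromosomes. With the 10 most abundant genes of each chromosome left out, 66 of 74 cells again had a chromosome under 0.5. In comparison cells of 72 h paclitaxel the share was then 53.6%, and 47.4% with all genes. Among RNA-poor cells called G1 the share in that library was 90.5%, and within 5 to under 15% MT- UMIs it was 89.8%. The 18 cells with 0 or 1 such chromosome and the 47 with 3 or more had median MT- shares of 7.5% and 6.81%, and G1 was called in 15 and in 39 of them. The cells with 3 or more held a median of 2623 genes after thinning, against 2934. DNA was not measured, and a chromosome missing from the nucleus cannot be told apart in these files from one that is present and silent.

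**Figure D4:**
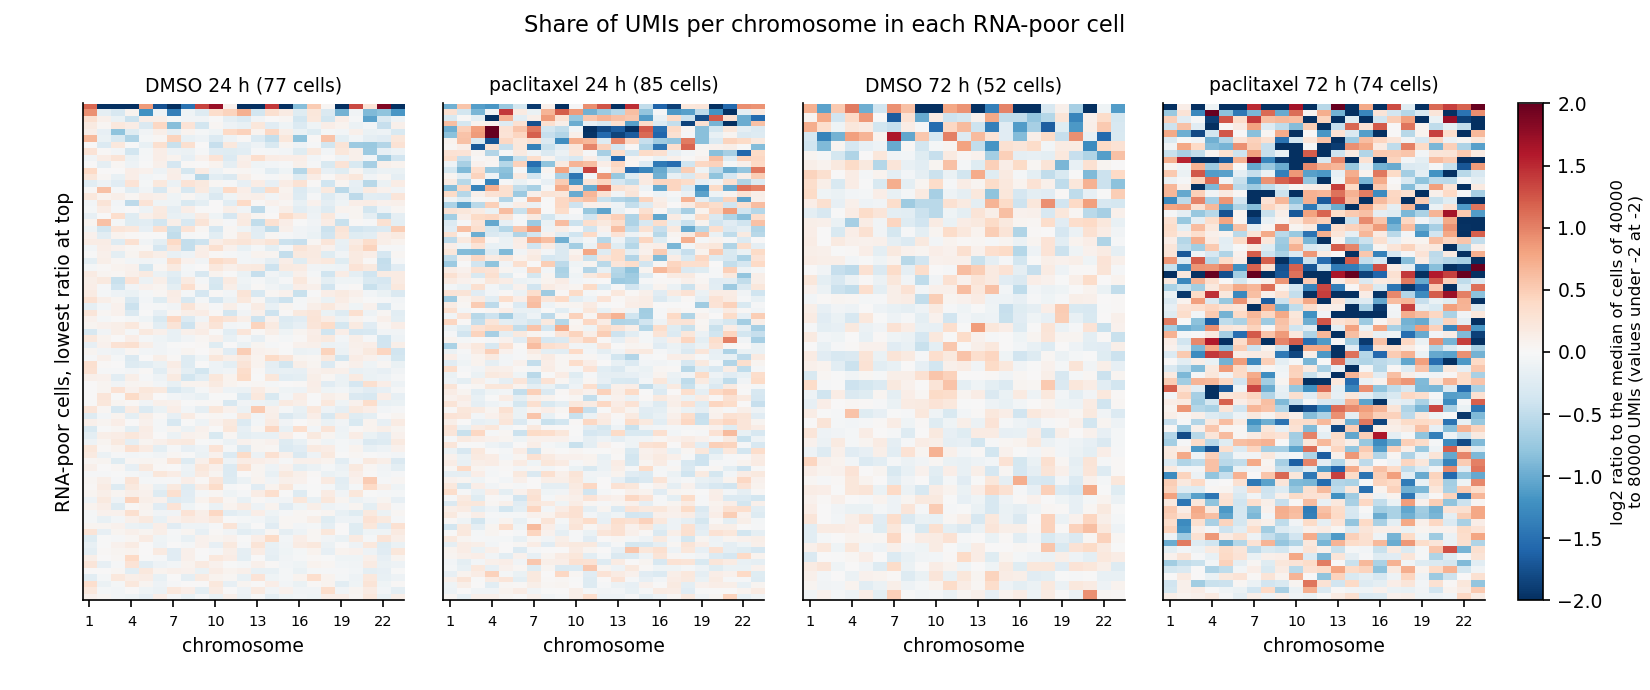
RNA-poor cells (rows) by chromosome (columns) in the 4 libraries; colour is the log2 ratio of the chromosome's UMIs to the median of comparison cells, drawn no lower than -2, in cells thinned to 10000 UMIs. Low chromosomes are frequent and differ from cell to cell in 72 h paclitaxel (66 of 74 cells) and are rare in 24 h DMSO (3 of 77).

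One transcript made the pattern visible at a single locus. MALAT1 is an abundant nuclear non-coding RNA and NEAT1, its neighbour, is the scaffold of paraspeckles; they lie on chromosome 11 at 65497688 to 65506516 and 65422774 to 65445540 (GRCh38). Pooled MALAT1 was higher in RNA-poor than in comparison cells, at 6467 against 5587 CPM in 24 h DMSO, 12287 against 8421 CPM in 24 h paclitaxel, 11339 against 7257 CPM in 72 h DMSO and 15183 against 11875 CPM in 72 h paclitaxel. Single cells nonetheless fell into separate ranges, and cells of the lower range were most frequent in the last library. There, 21 of 74 RNA-poor cells (28.4%, 18.5 to 40.1%) had under 1000 CPM of MALAT1, with none between 521 and 2641 CPM. The level of 1000 CPM was chosen after seeing the data. Such cells numbered 2 of 77 in 24 h DMSO, 10 of 85 in 24 h paclitaxel and 3 of 52 in 72 h DMSO, and 5 of the 194 comparison cells of 72 h paclitaxel. Gaps were seen in these pools too. None lay between 110 and 1196 CPM in RNA-poor cells of 24 h DMSO, or between 131 and 2140 CPM in 72 h DMSO. In comparison cells of 72 h paclitaxel none lay between 100 and 1472 CPM. The gap was narrow in RNA-poor cells of 24 h paclitaxel, from 870 to 1170 CPM.

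In 72 h paclitaxel all 18 cells low in chromosome 11 were also low in MALAT1. Among the 21 the chromosome's ratio had a median of 0.370 (0.0658 to 0.913), and 18 of them lay under 0.5. Among the remaining 53 it had a median of 1.18 (0.510 to 2.31), and 0 lay under 0.5. In 24 h paclitaxel 3 of the 10 cells low in MALAT1 lay under 0.5 for chromosome 11. Of the RNA-poor cells low in MALAT1 in DMSO, 0 of 2 at 24 h and 0 of 3 at 72 h did. MALAT1 is itself on this chromosome and abundant, so the relation was looked at in windows of 40 genes without MALAT1 and NEAT1.

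Over 12 such windows, the 4 from position 127204 to 57819546, which hold the short arm and the start of the long arm, had medians of 0.663, 0.583, 1.09 and 0.700 in the 21 cells. The 8 windows from 58579111 to 130314908, on the long arm, had medians of 0.118, 0.115, 0.168, 0.183, 0.310, 0.0829, 0.168 and 0.124. In the remaining 53 cells all 12 medians lay between 0.774 and 1.14. Single genes with at least 100 CPM were then counted with UMIs summed over cells. Unlike the windows, this count includes MALAT1, by which the 21 cells were chosen, and NEAT1. Of 46 genes of chromosome 11, 34 were lower by 1.5-fold in the 21 cells (73.9%). Of 1345 genes of other chromosomes, 205 were lower (15.2%). NEAT1 had 34.1 against 1231 CPM. Others, named after their values were seen, were SF3B2, a splicing factor subunit (log2 ratio -5.00), FTH1, the ferritin heavy chain, whose processed pseudogenes make its counts less certain, at 1140 against 8806 CPM, and CCND1, which encodes cyclin D1, at 300 against 1683 CPM. All 3 lie on the long arm of chromosome 11.

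**Figure D5:**
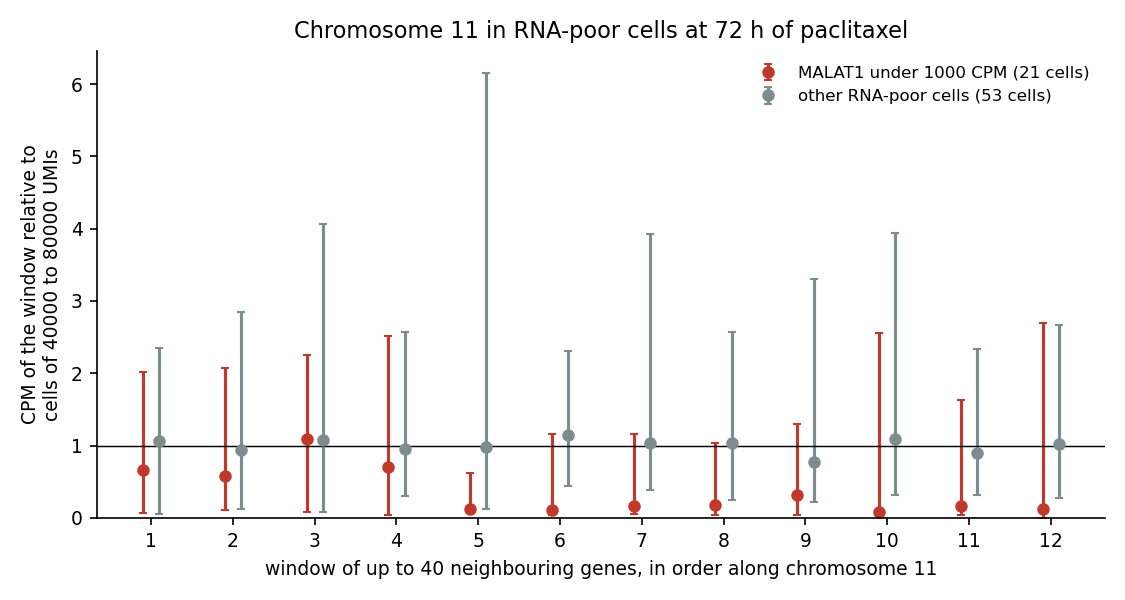
UMIs of 12 consecutive windows of genes along chromosome 11, as the ratio to the median of comparison cells, in RNA-poor cells of 72 h paclitaxel with under 1000 CPM of MALAT1 (21 cells) and with more (53 cells); points are medians and bars run from the lowest to the highest cell. The low cells have medians of 0.0829 to 0.310 from the fifth window on.

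Paclitaxel was then compared with DMSO within the RNA-poor cells, with the same contrast in comparison cells beside it. Counts of genes use the ratios as they stand, while for single genes the median log2 ratio over all genes was subtracted to give a relative log2 ratio; that median was -0.15 at 24 h and 0.28 at 72 h (-0.19 and 0.32 in comparison cells). Each contrast sets 1 library against 1 other. At 24 h, 198 genes were higher and 387 lower, or 7.39% and 14.4% of 2681, against 139 and 258, or 5.37% and 9.97%, in comparison cells. At 72 h, 835 were higher and 232 lower, or 31.7% and 8.82% of 2631, against 682 and 87, or 27.0% and 3.44%. Higher genes were thus 33.8% of those counted at 24 h and 78.3% at 72 h, but 53.8% and 56.8% with TMM factors and 44.0% and 47.0% with totals free of ribosomal protein and MT- genes.

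At 24 h the lower genes of the RNA-poor cells included those set apart in DMSO. EIF5A had 532 CPM in paclitaxel and 1701 CPM in DMSO, a relative log2 ratio of -1.53, against -0.30 in comparison cells. HIST1H4C had 216 against 809 CPM (-1.76, and -1.20 in comparison cells), though without the subtraction its log2 ratio was -1.90 over all RNA-poor cells and 0.20 over those called G1. Lower too were ANLN, a scaffold of the cytokinetic ring (-1.47, and -0.63 in comparison cells), CLSPN, a replication checkpoint adaptor (-1.40 and -0.59), and MYBL2, a transcription factor of cycling cells (-1.38 and -1.10). Of the S phase list 22 of 38 members were lower and 0 higher, and of the G2/M list 33 of 50 lower and 0 higher. At the minimum of 10 CPM 15.6% of all genes were lower and 5.94% higher. In comparison cells 10 of 40 and 23 of 51 members were lower and 0 higher, where 7.42% of all genes were lower. The G1 share of RNA-poor cells was 54.1% in paclitaxel and 26.0% in DMSO. G1 is called from these same lists, so the share follows them by construction. Its part in the lower genes was not tested.

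Higher at 24 h were MGP, the matrix Gla protein that inhibits calcification, at 132 against 23.7 CPM (2.62, and 2.54 in comparison cells), CCL28, a mucosal chemokine (2.56 and 2.54), and IFI6, an interferon-induced mitochondrial protein, at 280 against 79.7 CPM (1.96 and 2.95). LCN2, the iron-siderophore-binding lipocalin of epithelial defence (1.81 and 0.72), and MMP7, the secreted protease matrilysin (1.76 and 2.16), were higher as well. Interferon-stimulated genes were higher for 11 of 18 members and lower for 0. MHC class I presentation genes were higher for 7 of 10. In comparison cells 17 of 20 and 7 of 11 were higher, where 5.19% of all genes were higher and 7.42% lower. The inflammatory list, higher for 13 of 16, carries the uneven cells described above.

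At 72 h HERPUD1 had 182 CPM in paclitaxel against 21.6 CPM in DMSO, a relative log2 ratio of 2.79 (interval 2.21 to 3.43), while in comparison cells it had 57.0 against 19.5 CPM, or 1.23 (1.06 to 1.40). MAP1LC3B, the autophagosome protein LC3B, had 242 against 32.4 CPM (2.62, and 1.72 in comparison cells). GADD45B, a stress-induced signalling protein (2.43 and 1.35), and UPP1, a uridine phosphorylase (2.40 and 1.20), were likewise higher in both pools. The larger ratio in the RNA-poor cells cannot be read as a trait of the class, since the highest ratios were picked there. EDN1, the vasoconstrictor endothelin 1, stood at 121 against 14.1 CPM (2.81 and 2.06). IFI6, at 975 against 96.3 CPM (3.06 and 2.97), and ISG15, the ubiquitin-like interferon-induced modifier, at 1962 against 242 CPM (2.73 and 2.49), were closer between the pools.

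Lower at 72 h were HIST1H4C, at 42.8 against 277 CPM (-2.98, and -1.65 in comparison cells), KRT15, a basal keratin, at 70.5 against 283 CPM (-2.29 and -1.09), and NOTCH3, at 107 against 369 CPM (-2.07 and -0.79). KIAA0101 (-2.20 and -1.62), TNS3, a focal adhesion protein (-2.06 and -1.02), and CCL28 (-2.05 and -0.83) were lower too. KRT15 differed in direction from the basal marker list, of which 10 of 18 members were higher and 3 lower, with a sum of 7440 against 4624 CPM. In comparison cells 11 of 18 basal markers were higher and 2 lower. Of the S phase list 8 of 30 were higher and 3 lower, with a sum of 1150 against 945 CPM, and of the G2/M list 8 of 41 were higher and 12 lower. In comparison cells 3 of 37 S phase genes were higher and 4 lower. Of 47 G2/M genes there, 2 were higher and 19 lower. A single RNA-poor cell of 72 h paclitaxel had 16770 CPM of the S phase list. The median was 717 CPM over the 47 such cells with 3 or more chromosomes under 0.5. The S phase sum therefore leans in part on 1 cell. At 72 h 23.7% of all genes with at least 10 CPM were higher and 9.31% lower. Interferon-stimulated genes were higher for 25 of 30, stress response genes for 15 of 25, proteasome genes for 19 of 30, autophagy and lysosome genes for 17 of 28, and MHC class I presentation genes for 8 of 11. In comparison cells these counts were 30 of 33, 18 of 24, 23 of 30, 16 of 28 and 11 of 12. Tubulins, whose polymer is the target of the drug, were higher for 9 of 10 in RNA-poor and 7 of 10 in comparison cells. Ribosomal protein genes were lower for 36 of 82 and higher for 3, against 33 and 2 of 82 in comparison cells, where 26.3% of all genes were higher and 2.59% lower.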

How the data were processed

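Per the labels, 4 libraries of HCC1143 cells, 1 per group, were made with the 10x platform. The authors deposited raw UMI counts per gene symbol and barcode, without normalization. Cell Ranger 2.0 and GRCh38 are named per the submitters' processing notes. The step that separated cells from empty droplets is not stated. The tables held 15636 genes in common, and the rarest gene of a table was seen in 6 to 12 cells.

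RNA-poor and comparison cells were chosen by UMI total and MT- share. UMIs were summed per pool, scaled to CPM and compared as log2 ratios with exact 95% intervals for 2 Poisson counts (scipy 1.17.1, pandas 2.3.3). Shares carry Clopper-Pearson intervals. Phases were called with scanpy 1.11.5, doublets with Scrublet, and TMM factors came from edgeR 4.0.16 in R 4.3.3. Coordinates are from GENCODE release 29. The computations were tested on simulated data with known changes. A minimum on the mean CPM misses strongly lowered genes, so counts of lower genes are low estimates.

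The members, the 41 gene lists and the thresholds were chosen with earlier results of these data known. Named genes are the 12 with the highest and 12 with the lowest median ratio over libraries (mean of at least 50 CPM, same direction in all 4 libraries, without MT- and RPL/RPS genes and genes with over 25% of a pool's UMIs in 1 cell), the 8 highest and 8 lowest ratios for paclitaxel at each time, up to 4 members of each list and a few fixed genes. Other UMI and MT- limits, scalings, minimum levels and fold limits were tried, as were G1 cells alone. One gene that the naming rule covers is not reported here.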

Additional observations from a re-analysis of the deposited data

Results flagged for a closer look

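Barcodes under 30000 UMIs with under 2% MT- UMIs were outside the class. In 72 h paclitaxel there were 23 of them, against 4 in 72 h DMSO. In 18 of the 23 at least 1 chromosome stood at under 0.5 of its level in comparison cells, against 0 of the 4 in DMSO.

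For 5 genes paclitaxel went with opposite directions at the 2 times in RNA-poor cells. The values are relative log2 ratios, each from 1 library against 1 other, and the difference between times was not tested. CCL28, the mucosal chemokine, had 2.56 at 24 h and -2.05 at 72 h, and it also changed sign in comparison cells, as given above. KRT15, the basal keratin, had 1.30 and -2.29. GLTSCR2, a nucleolar protein also called NOP53, had 1.71 and -1.14. CLSPN, the replication checkpoint adaptor, had -1.40 and 1.41. WNT7B, a secreted Wnt ligand, had -1.42 and 0.54.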

How the results depend on the processing

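Each group is 1 library, so spread between cultures is unknown, and a library holds 52 to 85 RNA-poor cells, which limits precision. Every group holds replicate 1 only, so groups were not paired by replicate. Both pools of a library were compared within it. No paired fit over the 4 libraries was made, because the cells of both pools were chosen on the readout itself.

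Of 626 gene values under alternatives 623 kept their sign, as did 368 of 397 list medians. Among G1 cells (20 to 63 RNA-poor cells per library) CENPF turned to 0.56 and HIST1H4C, paclitaxel against DMSO at 24 h with no median subtracted, to 0.20. In RNA-poor cells, shares called G1 and shares with a low chromosome moved by less than their intervals, and the ratio of genes detected lay at 0.90 to 1.04 after thinning to 7000 UMIs as well. In comparison cells the share with a low chromosome was 3.72% in 72 h DMSO without the 10 most abundant genes of each chromosome, and 10.2% in 24 h paclitaxel against the median of DMSO cells. In library order, the RNA-poor share was 4.45%, 6.94%, 3.55% and 9.89% with a limit of 25000 UMIs and 9.71%, 17%, 11.4% and 18.4% with 35000. With 5 to under 15% MT- it was 4.82% in 72 h DMSO and 9.32% in 72 h paclitaxel, and under a limit at 0.5 of the library's median total it was 4.95% in 72 h DMSO.

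The 1 gene higher in all libraries became 2 to 7 when 1 library was left out (7 without 72 h paclitaxel). It became 3 at 25000 UMIs, 4 with a minimum of 10 CPM, 5 with no minimum, and 0 with 5 to under 15% MT-, TMM factors, totals without RPL/RPS and MT- genes, G1 cells or 2-fold. The 1 gene lower became 0 at 35000 UMIs, in G1 cells and at 2-fold. For 24 h paclitaxel, the 198 higher and 387 lower genes became 488 and 1278 with 10 CPM, 649 and 1511 with no minimum, and 49 and 60 at 2-fold; TMM gave 248 lower and totals without RPL/RPS and MT- genes 372 higher. At 72 h, the 835 and 232 became 1987 and 780, 2319 and 949, and 385 and 51; TMM gave 522 and 397, and totals without RPL/RPS and MT- genes 805 lower.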

Other observations

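Low MALAT1 was also found in the largest cells. Among cells over 80000 UMIs, under 1000 CPM of MALAT1 was seen in 24 of 260 cells of 24 h DMSO, 31 of 258 of 24 h paclitaxel, 17 of 178 of 72 h DMSO and 6 of 152 of 72 h paclitaxel. None of these had chromosome 11 under 0.5 of its level in comparison cells.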
